A study of Rattus norvegicus with 9 samples.

Results

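The molecular clock of mammalian cells is a feedback loop of transcription factors. ARNTL, also called BMAL1, pairs with CLOCK or NPAS2 and binds E-box sequences to switch on its own repressors and a layer of output factors, which in turn set the daily rhythm of many other genes. The REV-ERB receptors encoded by Nr1d1 and Nr1d2 close a second loop by repressing Arntl through elements that they share with the ROR receptors, so that in most tissues Arntl peaks at a different time of day from Dbp, Nr1d1 and Nr1d2. Clock genes cycle in glia and neurons as well as in the brain's central pacemaker.

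Described here are 10 clock genes and clock output factors, taken by gene name from a table of 34890 loci, in the ipsilateral L3-L6 spinal cord of 9 rats. They are the activators Arntl and Npas2, the repressors Nr1d1, Nr1d2, Ciart, Bhlhe40 and Bhlhe41, and the D-box binding factors Dbp, Tef and Nfil3. Each name matched 1 locus, and all 10 passed the filter of a mean of at least 1 TPM in every comparison. The names were chosen by the levels of these genes, since their TPM in all 3 groups and the difference between activators and outputs in PLM were already known. Their levels and differences are therefore given as a description, with no test.

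The animals were male wild-type Sprague Dawley rats, 3 in each group, and their age is not given in the sources used here. The JA group was sham-operated, without ligation or transection of the nerve, and received normal saline. The SNI group had a spared nerve injury, in which branches of the sciatic nerve are tied and cut while the sural branch is left whole, and also received saline. The PLM group had the same injury and received paeoniflorin at 20.65 mg/ml together with liquiritin, for which the methods give 1 dose of 3.98 mg/ml while the labels of replicates 1, 2 and 3 read 3.98, 3.99 and 3.100 mg/ml. Whether the 3 rats were dosed differently is not known. All rats were dosed by gavage for 21 days, were kept on a cycle of 12 h of light and 12 h of dark, and were anesthetized with pentobarbital before the cord was taken. The hour at which each cord was taken is not given in the sources used here.

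Levels are in TPM, where values are divided by transcript length and every sample sums to about 1000000, so that genes can be compared with each other but the read depth is unknown. Astrocyte, neuron, oligodendrocyte, microglia and posterior Hox markers fixed for the tissue were above 0 TPM in all 9 samples. The 13 mitochondrial protein genes took 31.3% to 32.8% of TPM in PLM, 23.7% to 26.1% in SNI and 25.3% to 32.8% in JA. Over the 15474 genes tested in PLM versus SNI the median difference on the log2 scale was -0.21. After TPM was rescaled without the mitochondrial protein genes it was -0.08, over the 16055 genes that then passed the filter. Differences are therefore given both as deposited and after each sample was centred on its median gene, as log2(TPM + 1), on which a low gene's difference comes out too small. The summed TPM of 4 Schwann cell markers ranged from 60.45 in a JA sample to 6286 in another JA sample. In bulk tissue, fewer cells of a type and less RNA per cell cannot be told apart.

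The 250 bases before the start of a gene show which members carry a clock element close to it. RefSeq promoters of the rat assembly GRCr8 were matched for all 10 members, 9 by symbol and Arntl through its current symbol Bmal1, and 300 bases from 250 before to 50 after the start were searched on both strands. The E-box was searched as CACGTG, the D-box as TTANGTAA and the core of the ROR and REV-ERB element as TAGGTCA, and no matches overlapped. The E-box was in 5 of the 10 members, namely Nr1d1 (in 1 of its 2 start sites), Ciart, Bhlhe40, Bhlhe41 and Tef, and in 6.42% of all 33469 promoters. The ROR and REV-ERB core was in Arntl and in 2.63% of all promoters, and the D-box was in none of the members and in 2.24% of all promoters. Npas2, Dbp, Nr1d2 and Nfil3 held none of these letters in this window. The 4 stretches below are shown because they hold the match of the activator Arntl and those of 3 repressors that the activators switch on, with the matches in capitals.
Arntl (Bmal1), chr1:176766208-176766327, plus strand: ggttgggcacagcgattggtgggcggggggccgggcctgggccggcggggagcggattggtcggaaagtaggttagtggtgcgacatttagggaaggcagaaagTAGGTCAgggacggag
Ciart, chr2:186112247-186112366, minus strand: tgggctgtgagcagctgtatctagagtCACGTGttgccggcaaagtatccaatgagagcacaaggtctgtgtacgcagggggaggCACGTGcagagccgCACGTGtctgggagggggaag
Bhlhe41, chr4:180569356-180569475, minus strand: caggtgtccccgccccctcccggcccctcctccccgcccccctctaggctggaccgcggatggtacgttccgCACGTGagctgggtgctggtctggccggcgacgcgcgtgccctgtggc
Nr1d1, second start site, chr10:84229455-84229704, minus strand: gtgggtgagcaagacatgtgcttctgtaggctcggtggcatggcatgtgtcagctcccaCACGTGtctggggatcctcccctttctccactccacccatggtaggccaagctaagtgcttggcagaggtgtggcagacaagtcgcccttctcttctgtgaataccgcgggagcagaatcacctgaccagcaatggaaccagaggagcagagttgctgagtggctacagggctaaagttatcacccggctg
Each stretch ends at the base before the start of the gene. The first base of the match in Arntl lies 16 bases before the start, and that in Bhlhe41 48 bases. The E-box of Nr1d1 lies 191 bases before its second start site. Ciart holds 3 E-boxes, at 93, 35 and 21 bases before its start, and 19 of the 33469 promoters hold 3 or more. These matches describe the letters of the window and do not show that a factor binds there.

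In PLM the activators were lower than in SNI, and Dbp and Nr1d2 were higher than in both other groups. Arntl, Npas2 and Dbp differed less between SNI and JA than between PLM and SNI, whereas as deposited Nr1d1 differed more between SNI and JA and Nr1d2 differed about equally in both. Arntl, the obligate partner of CLOCK and NPAS2, stood at 5.13, 6.26 and 5.42 TPM in PLM replicates 1, 2 and 3, at 11.23, 10.92 and 9.22 TPM in SNI and at 11.33, 9.33 and 8.85 TPM in JA. Every PLM sample lay below every sample of the other groups. The mean in PLM was 0.536 times that in SNI and 0.570 times that in JA. The log2 fold change was -0.79 with a standard error of 0.11 in PLM versus SNI as deposited, and -0.55 ± 0.10 (SE) after centring. In PLM versus JA it was -0.71 ± 0.13 and -0.59 ± 0.09 (SE). In SNI versus JA it was 0.08 ± 0.13 as deposited and -0.04 ± 0.10 (SE) after centring, within the spread of the samples.

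Npas2, a paralog of Clock that can take its place beside ARNTL, was at 1.98, 2.74 and 1.98 TPM in PLM and at 5.61, 5.30 and 4.68 TPM in SNI. The 2 groups did not overlap, and the log2 fold change was -0.94 ± 0.13 as deposited and -0.70 ± 0.12 (SE) after centring. JA spread over a wider range, at 5.82, 3.79 and 2.72 TPM, so that its lowest sample fell just under the highest PLM sample. The difference of PLM from JA was -0.62 ± 0.24 (SE) on the log2 scale as deposited, and -0.39 without JA replicate 1.

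Dbp, a D-box binding factor whose transcription follows the activators closely, was highest in PLM. It was at 58.65, 55.98 and 57.02 TPM in PLM, at 49.63, 42.58 and 43.99 TPM in SNI and at 40.49, 45.46 and 32.16 TPM in JA. All 3 PLM samples were above all 6 others, and the PLM samples differed little among themselves, with a coefficient of variation of 2.35% against 8.22% in SNI and 17.1% in JA. In PLM versus SNI the log2 fold change was 0.33 ± 0.07 as deposited and 0.58 ± 0.08 (SE) after centring. In PLM versus JA it was 0.54 ± 0.13 and 0.67 ± 0.12 (SE).

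The REV-ERB genes were also highest in PLM by their means. Nr1d2, which encodes REV-ERB beta, was at 14.89, 15.23 and 18.53 TPM in PLM, at 13.45, 13.97 and 12.11 TPM in SNI and at 11.01, 10.13 and 11.06 TPM in JA. None of the 3 groups overlapped another, and Nr1d2 was the only member of which this was true on TPM as deposited. Its log2 fold change was 0.28 ± 0.10 in PLM versus SNI and 0.27 ± 0.10 (SE) in SNI versus JA, and after centring 0.52 ± 0.09 and 0.15 ± 0.09 (SE). The deposited difference of PLM from SNI was 0.18 without PLM replicate 3. Centring brought the SNI and JA samples into overlap. Nr1d1, which encodes REV-ERB alpha, was at 20.83, 19.88 and 20.57 TPM in PLM, at 21.44, 17.75 and 15.06 TPM in SNI and at 17.17, 11.43 and 10.45 TPM in JA. PLM was above every JA sample, but the highest SNI sample exceeded all of PLM. As deposited the log2 fold change of Nr1d1 was 0.18 ± 0.12 in PLM versus SNI, or 0.06 without SNI replicate 3 and 0.30 without SNI replicate 1. It was 0.46 ± 0.21 in SNI versus JA and 0.64 ± 0.18 (SE) in PLM versus JA. After centring, PLM was above both groups, with log2 fold changes of 0.43 ± 0.12 against SNI and 0.77 ± 0.14 (SE) against JA.

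Ciart encodes a repressor of the CLOCK and ARNTL pair, and it is the member with 3 E-boxes in the stretch shown. It was at 6.30, 5.05 and 6.45 TPM in PLM, at 6.10, 4.39 and 4.67 TPM in SNI and at 4.29, 5.49 and 4.19 TPM in JA. The groups overlapped as deposited, with log2 fold changes of 0.20 ± 0.14 in PLM versus SNI and 0.29 ± 0.14 (SE) in PLM versus JA. The former was 0.12 without SNI replicate 2 and 0.32 without SNI replicate 1. After centring PLM was above SNI by 0.45 ± 0.14 and above JA by 0.42 ± 0.14 (SE) on the log2 scale, with no overlap.

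Bhlhe40 and Bhlhe41, which encode the E-box repressors DEC1 and DEC2, did not share the pattern of Dbp and Nr1d2. Bhlhe40 was at 9.15, 8.06 and 9.23 TPM in PLM, at 12.62, 14.37 and 11.30 TPM in SNI and at 11.97, 9.56 and 8.07 TPM in JA. PLM was below SNI without overlap, with a log2 fold change of -0.48 ± 0.11 (SE), where the median gene was at -0.21. After centring it was -0.24 ± 0.11 (SE) and the groups overlapped. Against JA the difference was -0.13 ± 0.15 (SE) as deposited, 0.00 without JA replicate 1 and -0.26 without JA replicate 3. Bhlhe41 was at 19.21, 18.45 and 25.42 TPM in PLM, at 27.79, 27.21 and 21.82 TPM in SNI and at 23.79, 24.67 and 17.16 TPM in JA, with overlap in each comparison. Its difference in PLM versus SNI was -0.28 ± 0.15 as deposited and -0.03 ± 0.13 (SE) after centring.

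Tef and Nfil3 complete the D-box binding factors, Tef as an activator related to DBP and Nfil3 as a repressor at the same sites. Tef was at 32.74, 33.36 and 34.27 TPM in PLM, at 43.32, 31.02 and 32.94 TPM in SNI and at 36.67, 33.18 and 27.95 TPM in JA. As deposited PLM lay inside the range of both other groups. After centring it was above every JA sample, by 0.17 ± 0.08 (SE) on the log2 scale, and the sign of its difference from SNI turned with the scaling, from -0.08 ± 0.13 as deposited to 0.17 ± 0.12 (SE) after centring. As deposited the difference from SNI was 0.06 without SNI replicate 1 and -0.17 without SNI replicate 2. Nfil3 was at 17.08, 10.70 and 16.03 TPM in PLM, at 13.74, 19.75 and 26.65 TPM in SNI and at 13.18, 15.86 and 17.46 TPM in JA. The difference of PLM from SNI, -0.41 ± 0.26 (SE), was smaller than the spread between SNI samples. It was -0.16 after centring, -0.19 without SNI replicate 3, -0.22 without PLM replicate 2 and -0.64 without SNI replicate 1. The log2 ratio of Dbp to Nfil3 was 2.00 ± 0.34 in PLM, against 1.23 ± 0.57 in SNI and 1.34 ± 0.40 in JA (SD of 3 samples), and PLM overlapped with SNI but not with JA.

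**Figure D1:**
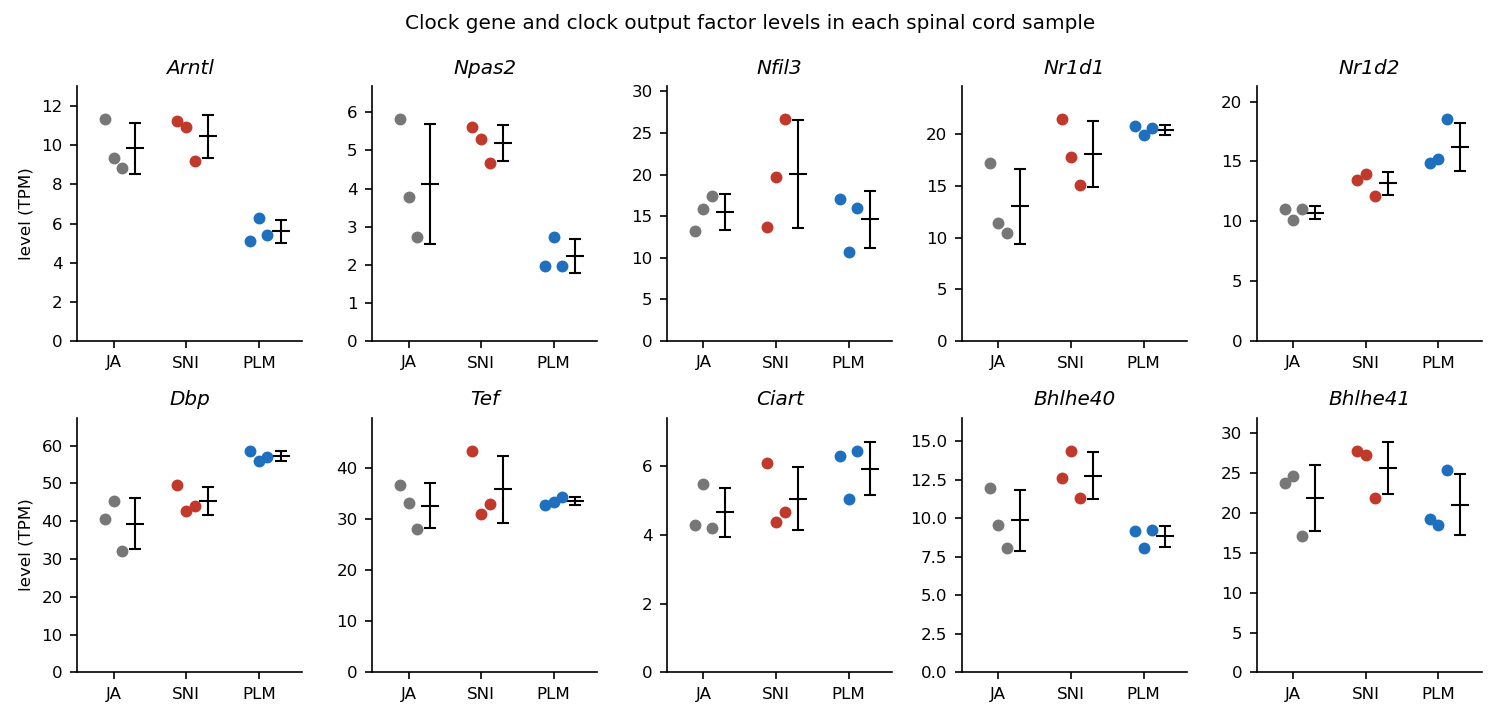
Level of each of the 10 genes in TPM (vertical axes, from 0) in the 3 JA, 3 SNI and 3 PLM samples, with points for samples (replicates 1 to 3 from left to right) and the mean ± SD beside them. Arntl in PLM sits between 5.13 and 6.26 TPM, below the 6 other samples, and Dbp in PLM sits between 55.98 and 58.65 TPM, above them.

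The order of the levels within a group also differed at its lower end. Dbp was the most abundant member in each group and Tef the next, at 39.4 ± 6.72 and 32.6 ± 4.39 TPM in JA, 45.4 ± 3.73 and 35.8 ± 6.62 TPM in SNI and 57.2 ± 1.35 and 33.5 ± 0.770 TPM in PLM (SD, n = 3). The gap between Dbp and Tef was larger than the SD of either in every group. Bhlhe41 came next in every group, with a mean of 21.9 ± 4.11 TPM in JA and 25.6 ± 3.29 TPM in SNI, and in SNI and PLM it did not differ from its neighbour below, Nfil3 or Nr1d1, by more than the larger SD. Arntl stood above Ciart in JA, at 9.84 ± 1.32 against 4.66 ± 0.723 TPM, and in SNI, at 10.5 ± 1.08 against 5.05 ± 0.917 TPM. In PLM these 2 genes were at 5.60 ± 0.587 and 5.93 ± 0.769 TPM and did not differ beyond their SD. Npas2 was the lowest member in JA and PLM, at 4.11 ± 1.57 and 2.23 ± 0.439 TPM, but in JA and SNI Npas2 and Ciart did not differ by more than the larger SD.

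The 3 comparisons share their samples in pairs, so their values are set side by side and are not independent of each other. In PLM versus SNI, 2 members were above SNI without overlap as deposited (Dbp and Nr1d2), where 1.59% of all genes tested were, and 3 were below it (Arntl, Npas2 and Bhlhe40), where 41.9% of all genes were. After centring 4 members were above SNI without overlap, with Nr1d1 and Ciart added, against 14.1% of all genes, and 2 were below it, Arntl and Npas2, against 9.73%. In PLM versus JA, 3 members were above without overlap as deposited, against 2.00% of the 15349 genes tested, and 1 was below, against 15.7%. After centring these were 5 members against 9.51% and 1 against 6.93%. In SNI versus JA, 1 member was above without overlap as deposited, against 12.1% of the 15557 genes tested, and none was below, against 1.66%. After centring none was above, against 4.00%, and none below, against 6.87%. Since the members were chosen with these values known, nothing is read from these counts. None of the 10 had an absolute log2 fold change above 1 in any of the comparisons on log2(TPM + 1), and the largest was the -0.94 of Npas2, which was -1.01 without SNI replicate 3 and -1.05 without PLM replicate 2. With a pseudocount of 0.1 it was -1.19, and the mean of Npas2 in PLM was 0.43 times that in SNI.

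**Figure D2:**
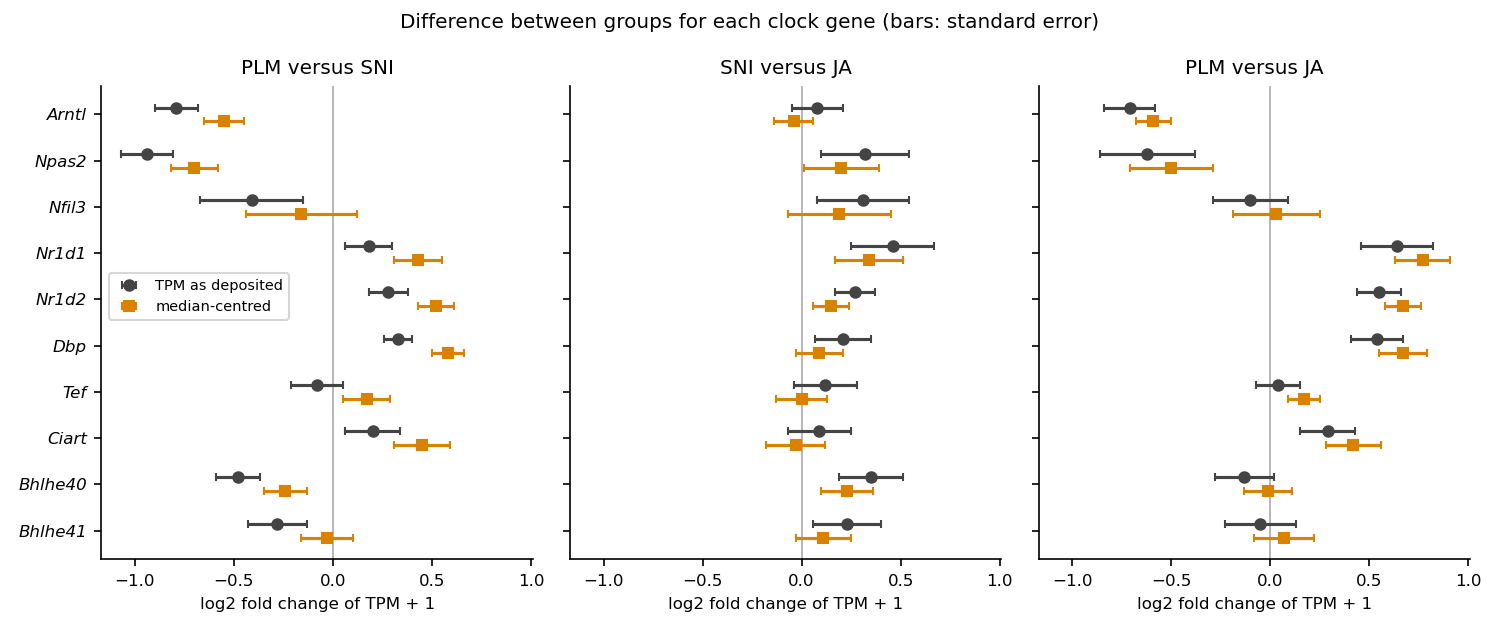
Log2 fold change of TPM + 1 (horizontal axes) of each gene in the 3 comparisons, with circles for TPM as deposited, squares for median-centred values and bars for the standard error from limma. Arntl and Npas2 lie left of 0 and Dbp, Nr1d1 and Nr1d2 right of 0 in both comparisons of PLM on both scales, while in SNI versus JA the centred values lie between -0.04 and 0.34.

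A ratio of 2 genes within a sample, taken without a pseudocount, does not change with the scaling of that sample, and it sets activators against outputs directly. The log2 ratio of Dbp to Arntl, on TPM + 1, was 3.28, 2.97 and 3.18 in PLM replicates 1, 2 and 3, 2.05, 1.87 and 2.14 in SNI and 1.75, 2.17 and 1.75 in JA. The lowest PLM sample stood well above the highest of the 6 others, and SNI and JA overlapped. The group means were 3.14 ± 0.16 in PLM, against 2.02 ± 0.14 in SNI and 1.89 ± 0.24 in JA (SD, n = 3), a difference of 1.12 between PLM and SNI and of 0.13 between SNI and JA. Without a pseudocount these differences were 1.24 and 0.13. The difference between SNI and JA was 0.06 to 0.27 with each sample left out, and it was 0.27, with no overlap, without JA replicate 2. JA replicate 2 had a mitochondrial share of 32.8%, equal to the highest in PLM, and its log2 ratio of Dbp to Arntl was 2.17. Any relation between the mitochondrial share and this ratio was not tested.

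The 8 other members set against Arntl and against Npas2 gave 16 such ratios without a pseudocount, which share their genes and are not independent. In PLM versus SNI, 6 of the 8 ratios to Arntl were higher without overlap, where 77.8% of all genes tested and above 0 TPM in each sample gave such a ratio to Arntl, and 7 of the 8 ratios to Npas2, against 86.9% of all genes. Since most genes gave such ratios, nothing about the outputs is read from these counts. The ratios that overlapped were Bhlhe40 to Arntl, with a difference of 0.37, Nfil3 to Arntl, with 0.47, and Nfil3 to Npas2, with 0.80. The largest difference was the 1.57 of Dbp to Npas2. In PLM versus JA, 7 of the 8 ratios to Arntl were higher without overlap, against 78.2% of all genes, and 6 of the 8 to Npas2, against 40.9%, and those that overlapped were both ratios of Nfil3 and Bhlhe40 to Npas2. In SNI versus JA, 2 of the 8 ratios to Arntl were higher without overlap, against 6.20% of all genes, Nr1d1 to Arntl by 0.40 and Bhlhe40 to Arntl by 0.29. None of the ratios to Npas2 was, against 0.471%. Ratios between paralogs differed in whether they moved. Nr1d1 to Nr1d2 gave a log2 ratio of 0.34 ± 0.17 in PLM, against 0.44 ± 0.20 in SNI and 0.24 ± 0.37 in JA (SD of 3 samples), with overlap between all groups. Dbp to Tef gave 0.77 ± 0.06 in PLM, where it was above every other sample, against 0.36 ± 0.14 in SNI and 0.27 ± 0.17 in JA. The log2 ratio of Arntl to its partner Clock was 0.31 ± 0.24 in PLM, against 0.94 ± 0.11 in SNI and 1.00 ± 0.11 in JA (SD, n = 3), so that the activator was lower in PLM relative to its partner as well. Npas2 to Clock was lower in PLM than in SNI by 0.96 without overlap, and lower than in JA by 0.71 with overlap.

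The mean log2(TPM + 1) of Arntl and Npas2 minus that of the 7 members Dbp, Nr1d1, Nr1d2, Ciart, Bhlhe40, Bhlhe41 and Tef gave 1 value for each sample. It was -2.18, -1.82 and -2.26 in PLM, -1.25, -1.14 and -1.20 in SNI and -0.96, -1.26 and -1.22 in JA. PLM was lower than SNI by 0.89. The difference of SNI from JA was -0.05, and 0.05 without JA replicate 1, so its sign is not settled. In PLM versus SNI as deposited the log2 fold changes of the activators were -0.79 and -0.94. Those of Dbp, Nr1d1, Nr1d2 and Ciart were 0.18 to 0.33, and those of Bhlhe40, Bhlhe41 and Tef -0.48 to -0.08. As deposited the 0.89 thus lies mostly in the activators and does not show that the outputs rose as a set. How it divides between activators and outputs changes with centring. Among clock genes left out of the members, Clock and Cry1, which is a repressor and no activator, were set against Per1, Per2, Per3 and Hlf. These genes too were known when the members were chosen, so this value is no independent check. This value was 0.49 ± 0.06 in PLM, against 0.56 ± 0.12 in SNI and 0.61 ± 0.11 in JA (SD, n = 3), and the groups overlapped in every comparison. The difference of PLM from SNI was -0.07, and -0.13 to -0.01 with each sample left out, the ends being without SNI replicates 3 and 2. That of PLM from JA was -0.12, and -0.17 without JA replicate 3, -0.16 without PLM replicate 3 and -0.14 with a pseudocount of 0.1, all with no overlap, and -0.06 without JA replicate 1. That of SNI from JA was -0.05. No p is given, since an exact permutation test of 3 against 3 samples cannot give less than 0.10.

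**Figure D3:**
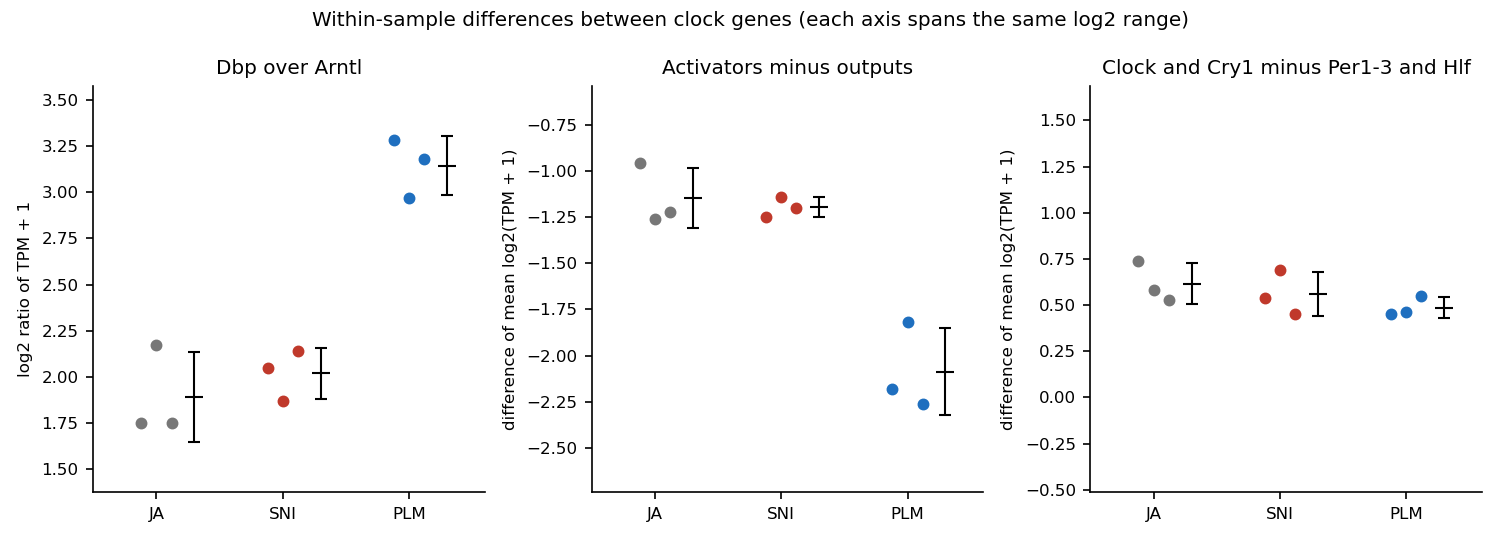
Within-sample differences on the log2 scale (vertical axes, each spanning the same log2 range) for Dbp over Arntl, for the activators minus the outputs among the 10 genes, and for Clock and Cry1 minus Per1, Per2, Per3 and Hlf, with points for samples and the mean ± SD beside them. PLM stands apart from JA and SNI in the first and second panels and overlaps with both in the panel of other clock genes.

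A list of 19 other clock genes, which were left out of the members with earlier results known, was tested in the limma fit over all genes. In PLM versus SNI 15 of the 19 passed the filter of a mean of at least 1 TPM. On TPM as deposited 4 of the 15 fell at an adjusted p-value under 0.05, against 13.6% of all genes tested, and none rose, against 0.246%. Cry1, a core repressor of the activator pair, was at 5.96, 5.31 and 6.26 TPM in PLM and at 8.29, 8.54 and 7.98 TPM in SNI, a log2 fold change of -0.44 ± 0.09 (SE, adjusted p = 0.029, limma). Rorb, a receptor that acts on the same elements as the REV-ERBs, was at 0.52, 0.93 and 0.84 TPM in PLM, at 1.97, 2.00 and 1.96 TPM in SNI and at 1.28, 1.00 and 0.54 TPM in JA. Its levels in PLM lay below SNI and overlapped with JA, and PLM versus SNI gave a log2 fold change of -0.76 ± 0.16 (SE). Its mean was 0.763 TPM in PLM and 0.940 TPM in JA, so it passed the filter only through SNI, where it was high, and its call is no support. With at least 1 TPM required in every sample, 3 other clock genes were called. Csnk1d, a kinase that acts on the PER proteins, had a log2 fold change of -0.40 ± 0.07 (SE, adjusted p = 0.0216, limma). Noct, a rhythmic gene that encodes nocturnin, had a log2 fold change of -0.35 ± 0.08 (SE, adjusted p = 0.0442, limma).

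These 4 calls were lost on median-centred values, where none of the 15 passed an adjusted p-value under 0.05 in limma, while 0.129% of all genes were called higher and 0.685% lower, and 1, Rorb, had an unadjusted p-value under 0.05 (log2 fold change -0.52, adjusted p = 0.161, limma). The centred log2 fold changes were -0.19 for Cry1, -0.15 for Csnk1d and -0.10 for Noct (adjusted p = 0.313, 0.296 and 0.605, limma). None was called without SNI replicate 1, SNI replicate 3, PLM replicate 1 or PLM replicate 2 either, and 1 was called without PLM replicate 3. The median log2 fold change of the 15 was -0.36 as deposited, where that of all genes was -0.21, and -0.11 after centring, where that of all genes was 0.04. The period genes, which encode the classical repressors, did not pass. Per1 was at 8.09, 6.04 and 9.45 TPM in PLM and at 7.68, 11.06 and 12.75 TPM in SNI (adjusted p = 0.246, limma). Per2 was low in every group, with means of 1.61 ± 0.0907 TPM in PLM, against 1.55 ± 0.0961 TPM in SNI and 1.44 ± 0.190 TPM in JA (SD, n = 3), and after centring PLM was higher than SNI by 0.28 ± 0.12 on the log2 scale (SE, adjusted p = 0.297, limma). Per3 had a log2 fold change of -0.36 ± 0.16 as deposited and -0.11 ± 0.16 after centring (SE, adjusted p = 0.146 and 0.758, limma). Cry2 and Hlf, a D-box binding factor related to Dbp and Tef, had log2 fold changes of -0.34 ± 0.10 and -0.35 ± 0.18 as deposited (SE, adjusted p = 0.0698 and 0.209, limma). Clock had a log2 fold change of -0.23 ± 0.11, close to that of the median gene (SE, adjusted p = 0.189, limma).

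**Figure D4:**
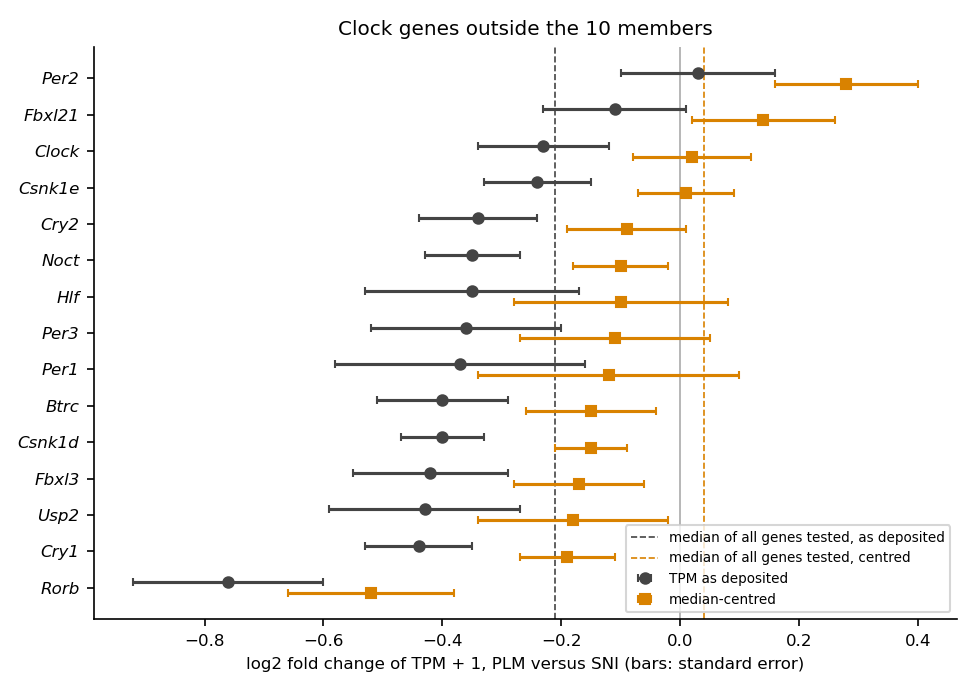
Log2 fold change of TPM + 1 in PLM versus SNI (horizontal axis) of the 15 other clock genes tested, with circles for TPM as deposited, squares for median-centred values, bars for the standard error and dashed lines for the median of all genes tested. The circles lie mostly left of the median of all genes at -0.21, and after centring the values lie between -0.52 (Rorb) and 0.28 (Per2).

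In the other comparisons none of these genes was called in limma. In SNI versus JA, 0 of 15 passed an adjusted p-value under 0.05 and 2 had an unadjusted p-value under 0.05, Rorb, which passed the filter only through SNI, and Noct with 0.32 ± 0.12 (SE, adjusted p = 0.614, limma). In PLM versus JA, 0 of 14 passed and 2 had an unadjusted p-value under 0.05, Cry1 with -0.39 ± 0.14 (SE, adjusted p = 0.402, limma) and Csnk1d with -0.22 ± 0.09 (SE, adjusted p = 0.412, limma). Over all genes as deposited, 0 passed an adjusted p-value under 0.05 in limma in SNI versus JA, where 1104 had an unadjusted p-value under 0.05, while 1 passed with no filter and 1 to 8 with each sample left out, 8 of them without SNI replicate 2. In PLM versus JA 0.00652% were called higher and 0.0130% lower, 3 genes in all, and these were 3 to 22 with each sample left out, 22 without JA replicate 3, 8 without PLM replicate 3 and 6 without JA replicate 1 or PLM replicate 2. On median-centred values 0.00% were called in SNI versus JA, and in PLM versus JA 0.00% higher and 0.0130% lower.

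Astrocyte markers were lower in PLM than in SNI. All 12 markers of the list had a log2 fold change below 0 in PLM versus SNI and 11 passed an adjusted p-value under 0.05 in limma as deposited and 7 after centring, against 13.6% and 0.685% of all genes, with a median of -1.16 as deposited and -0.92 after centring. None of the 12 passed in SNI versus JA, with a median of 0.32 as deposited, or in PLM versus JA, with a median of -0.89. Their summed TPM ranged from 3849 to 4413 in PLM, from 6668 to 7809 in SNI and from 4912 to 7604 in JA, and none was at 0. Their part in the levels of the clock genes was not tested. JA replicate 3 had a mean astrocyte level of 6.16 on the log2 scale, nearer to the PLM samples, at 5.81 to 6.03, than to the SNI samples, at 6.96 to 7.20. The same sample had 8.85 TPM of Arntl, above every PLM sample, 2.72 TPM of Npas2, within the range of PLM, and 32.16 TPM of Dbp, the lowest of all 9. Of 10 glucocorticoid-induced genes, listed because glucocorticoids set the clock in many tissues, none passed an adjusted p-value under 0.05 in PLM versus SNI in limma. Their median log2 fold change was -0.40 as deposited and -0.15 after centring in that comparison, where the medians of all genes were -0.21 and 0.04. In SNI versus JA it was 0.39 and 0.27, where those of all genes were 0.12 and -0.01, and none of the list passed there either.

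The genes whose pattern over the 9 samples was most like that of Dbp and of Arntl were sought on median-centred values. The search covered 12666 named genes with at least 1 TPM in every sample and left out the 10 members. For Dbp these were Mturn, Gpcpd1, Gab2, Rasgef1a and Map2k7, with Pearson's r from 0.927 to 0.978 and Spearman's rho from 0.933 to 0.983. Mturn, the closest, was at 37.5 ± 1.77 TPM in PLM, against 34.2 ± 1.08 TPM in SNI and 28.9 ± 2.95 TPM in JA (SD, n = 3). Without the 2 samples farthest from the median, PLM replicates 1 and 2, r stayed between 0.848 and 0.971. For Arntl they were Prr5l, Txn2, Yipf3, Ddb1 and Fzd2, with r from 0.946 to 0.960 and rho from 0.733 to 0.917. Prr5l was at 9.58 ± 0.505 TPM in PLM, against 14.7 ± 0.630 TPM in SNI and 14.3 ± 1.07 TPM in JA (SD, n = 3). Without PLM replicates 1 and 3, r was between 0.824 and 0.939. No other clock gene was among the 5 closest of either. These values are picked as the highest of many over 9 samples that share 3 groups, and they are a description.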

How the data were processed

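RNA of the ipsilateral L3-L6 spinal cord was analysed for 9 rats, grouped by sample title, with 3 replicates each. The authors trimmed reads with fastp version 0.19.5, mapped them with HISAT2 and computed expression with StringTie. The submitters' processing notes name the human build GRCh38.p13, while the identifiers are rat Ensembl ones, so the rat build is not given in the sources used here. The authors deposited TPM with 2 decimals, a unit read from totals between 999999.57 and 1000000.4. TPM keeps no depth, so no counting error is given.

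Groups were compared in pairs with limma version 3.58.1 (R version 4.3.3) on log2(TPM + 1), keeping loci whose mean over the 6 samples was 1 TPM or more, with p-values adjusted over all of them by Benjamini and Hochberg. The calling was tested on simulated data. The members and lists were chosen with earlier results of these data known. Named were the 10 members, other clock genes at an adjusted p-value under 0.05, Clock, the Per and Cry genes and Hlf in any case, and the 5 genes most like Dbp and Arntl. Alternatives were median-centring, quantile normalization, TPM rescaled without mitochondrial protein genes, a pseudocount of 0.1, other filters, all 9 samples in one fit, the replicate number as a block, summed TPM and leaving out each sample. The Dbp to Arntl ratio without a pseudocount was chosen after seeing the data.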

Additional observations from a re-analysis of the deposited data

How the results depend on the processing

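Across the alternatives for all 30 fold changes of the members (10 genes in 3 comparisons), 397 of 420 values moved by less than the residual SD of the gene, 23 moved by more. The other filters, the fit to all 9 samples and the replicate block cannot change a fold change here, so their values add nothing to the 397. In PLM versus SNI median-centring and quantile normalization moved every member but Nfil3 by more than this SD. Outside PLM versus SNI only Nr1d2 in SNI versus JA moved so far. Of the 30, 8 changed sign or reached 0 under an alternative, and all of these were at most 0.13 in size (log2). The 14 alternatives for PLM versus SNI kept Arntl between -0.89 and -0.55, Npas2 between -1.19 and -0.70 and Dbp between 0.29 and 0.58. The difference of the Dbp to Arntl log2 ratio between PLM and SNI was 1.05 to 1.21 with each sample left out. The activators minus the outputs, -0.89 in PLM versus SNI, became -1.06 with a pseudocount of 0.1 and -1.07 as a ratio of summed TPM, and -1.02 to -0.81 with each sample left out. In SNI versus JA this value, -0.05, was -0.10 to 0.05 with each sample left out, and the index of other clock genes, also -0.05, was -0.12 to 0.01, so neither sign is settled.

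The 4 other clock genes called in PLM versus SNI became 0 on median-centred, quantile-normalized and mitochondria-free values, 2 with no filter, 1 in a fit to all 9 samples, and 0 to 3 with each sample left out. With the replicate number as a block 0 were called. Same-numbered samples of PLM and SNI had correlations of their deviations between -0.0193 and 0.0323, so the number does not pair them, and the block moved the genes past both thresholds (unadjusted p under 0.05 and more than 1 unit of log2 in either direction) from 255 to 283 and those at an adjusted p-value under 0.05 from 2148 to 152. The 2148 were 275 to 1494 with each sample left out, and the share of all genes called moves with them. These 255 genes became 166 on median-centred values, 219 to 294 with each sample left out. With at least 1 TPM in every sample, where fewer genes are tested, 107 genes in SNI versus JA became 40 and 144 in PLM versus JA became 71. The 144 were 121 to 228 with each sample left out, the highest without JA replicate 3. On median-centred values the calls in PLM versus SNI were 64 higher and 102 lower, in place of 35 and 220. TPM gives no depth, and 3 samples in each group limit the precision throughout.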

Other observations

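Nfil3, which also responds to immune and hormonal signals, varied in step with Per1, a clock gene that glucocorticoids induce, in SNI and JA. In PLM the order of the 2 genes differed. The likeness in SNI and JA was noticed after the values were seen, and a part of hormones in it was not tested. In SNI replicates 1, 2 and 3 Nfil3 was at 13.74, 19.75 and 26.65 TPM and Per1 at 7.68, 11.06 and 12.75 TPM. In JA Nfil3 was at 13.18, 15.86 and 17.46 TPM and Per1 at 6.93, 9.02 and 10.50 TPM. In PLM Nfil3 was at 17.08, 10.70 and 16.03 TPM and Per1 at 8.09, 6.04 and 9.45 TPM. Replicate 2 was the lowest for both genes, while Nfil3 was highest in replicate 1 and Per1 in replicate 3. Over the 9 samples, on median-centred values, Pearson's r of Nfil3 with Per1 was 0.94 and Spearman's rho 0.85, and r was 0.92 without the 2 samples farthest from the median of Nfil3. With the mean of the 10 glucocorticoid-induced genes r was 0.89, rho 0.87, and r without these 2 samples 0.73. Each r pools the 3 groups, and how many other genes follow Nfil3 as closely was not counted. Before centring, the mean level of these glucocorticoid-induced genes was 4.72, 4.92 and 5.29 on the log2 scale in SNI, 4.73, 4.59 and 4.67 in JA and 4.62, 4.30 and 4.83 in PLM. In JA it was highest in replicate 1, where Nfil3 was lowest. These values describe 9 samples and carry no test.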
